A study of Mus musculus with 16 samples.

Results

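The creatine cycle genes are a small family that makes, imports and phosphorylates creatine, and they were described here across Ucp1-knockout (KO) and wild-type (WT) brown adipose tissue with and without isoproterenol. The members were chosen by name: Gatm, Gamt, Slc6a8, Ckb, Ckm, Ckmt1, Ckmt2 and Alpl. Of these 8 genes, 7 had a row among the 15350 genes of the series, and Ckmt1 was not analysed here. Interscapular brown adipose tissue came from C57BL/6J mice and was read by mRNA sequencing. The 4 groups were KO mice infused with isoproterenol, an agonist of beta-adrenergic receptors, at 60 mg per kg per day for 3 days from an osmotic minipump, WT mice given the same infusion, KO mice given saline and WT mice given saline. Each group held 4 libraries. Nothing in the labels ties libraries to separate animals, so each p-value is against a spread that may be partly technical, and ages are not stated in the labels used here.

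Creatine is made in 2 steps. GATM forms guanidinoacetate from arginine and glycine, and GAMT methylates it to creatine with S-adenosylmethionine as the methyl donor. SLC6A8 carries creatine across the plasma membrane. Creatine kinases move a phosphate between ATP and creatine: CKB is the cytosolic brain-type enzyme, CKM the cytosolic muscle-type enzyme, and CKMT1 and CKMT2 are mitochondrial enzymes, the second of them typical of striated muscle. In mouse brown adipocytes, CKB and ALPL, the tissue-nonspecific alkaline phosphatase, have been described as parts of a futile cycle in which phosphocreatine is made and hydrolysed, releasing heat without UCP1.

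The libraries held 9004515 to 20986735 reads over the listed genes. Values are counts per 1e6 reads (CPM) as scaled by the authors, and 1 read was worth 0.0476 to 0.115 CPM. Ucp1, the targeted gene, had 19.0, 268, 848 and 2129 CPM in KO isoproterenol libraries, 8905 to 18458 CPM in WT isoproterenol libraries, 410 to 1156 CPM in KO saline libraries and 2298 to 3449 CPM in WT saline libraries. The deleted stretch of Ucp1 is not named in the labels, so reads left in KO libraries check nothing about the genotype. KO isoproterenol replicate 1 stood apart on the first principal component, which held 50.3% of the variance, and results are given with and without it where it matters. A gene was called at a limma adjusted p under 0.05 over all genes. Skeletal muscle RNA varied widely within every group: the 27 measured genes of a 30-gene muscle list, led by Myh4, Acta1 and Atp2a1, summed to between 41.6 and 1038 CPM per KO isoproterenol library, 109 and 3902 CPM per WT isoproterenol library, 103 and 1134 CPM per KO saline library and 135 and 12059 CPM per WT saline library. Brown adipocyte markers, 12 of 12 measured, summed to between 177 and 8715 CPM in KO isoproterenol, 14874 and 27136 CPM in WT isoproterenol, 6542 and 6911 CPM in KO saline and 6855 and 9281 CPM in WT saline. Ucp1, the targeted gene, is among the 12 and alone held 8905 to 18458 CPM in WT isoproterenol. These sums are therefore no measure of brown adipocyte content apart from genotype. Neutrophil markers, 7 of 12 measured, summed to between 71.7 and 468 CPM in KO isoproterenol, 22.2 and 39.8 CPM in WT isoproterenol, 7.29 and 11.7 CPM in KO saline and 9.83 and 14.9 CPM in WT saline. In bulk tissue, fewer cells of a type and less RNA per cell cannot be told apart.

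The 7 measured genes showed several kinds of pattern. Alpl was higher after isoproterenol in both genotypes, by 3.50-fold in KO and 3.37-fold in WT. Slc6a8 was lower after isoproterenol in WT tissue, by 2.81-fold, while its KO difference was 0.045 on the log2 scale and was not called. Ckb and Gamt were lower after isoproterenol in KO tissue, by 2.77-fold and 2.87-fold, and were not called in WT. A genotype difference in the response was called for Ckb and not for Gamt. Ckm and Ckmt2 varied widely within every group and followed the skeletal muscle genes, and Gatm was not called in any comparison.

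**Figure D1:**
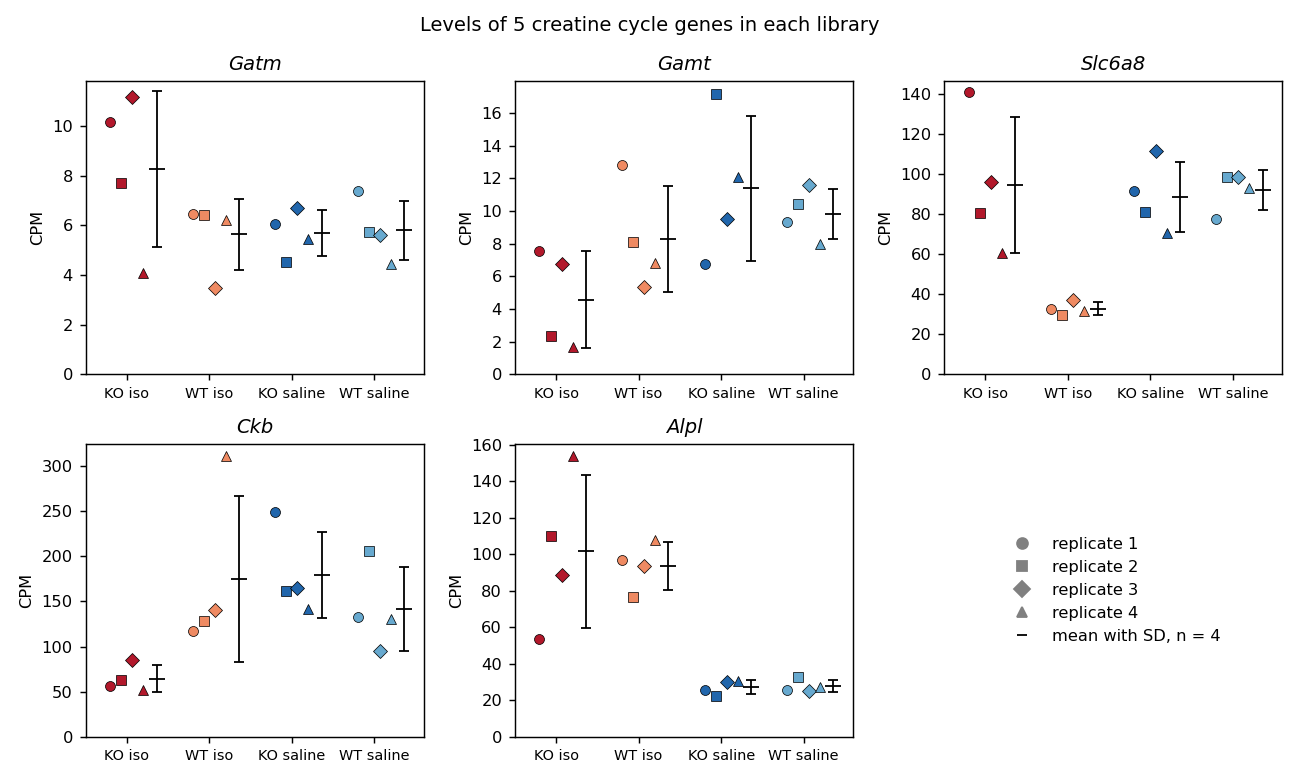
Level of 5 creatine cycle genes in CPM (vertical axes, linear, from 0) in each library, by group: KO isoproterenol, WT isoproterenol, KO saline and WT saline. Symbols mark replicate numbers and the black bar is the mean with SD (n = 4). Slc6a8 lay between 29.6 and 37.2 CPM in WT isoproterenol and at 60.6 CPM or more in the other 12 libraries, and Alpl lay at 32.6 CPM or less in all 8 saline libraries.

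The creatine transporter fell after isoproterenol in WT tissue, and its response differed between the genotypes. Slc6a8 (ENSMUSG00000019558, chromosome X) had 141, 80.5, 96.0 and 60.6 CPM in KO isoproterenol, 32.7, 29.6, 37.2 and 31.3 CPM in WT isoproterenol, 91.6, 81.1, 111 and 70.6 CPM in KO saline and 77.6, 98.7, 98.5 and 93.1 CPM in WT saline. The 4 WT isoproterenol libraries were the 4 lowest of the 16 and did not overlap with any other group, while the other 3 groups overlapped with each other. Slc6a8 averaged 32.7 ± 3.22 CPM in WT isoproterenol and 92.0 ± 9.95 CPM in WT saline (SD, n = 4 each), a log2 difference of -1.49 (SE 0.21, limma adjusted p = 3.05e-04). It averaged 94.5 ± 34.1 CPM in KO isoproterenol and 88.7 ± 17.4 CPM in KO saline, a log2 difference of 0.045 with a 95% interval of -0.39 to 0.48 (limma adjusted p = 0.879). That interval uses a spread shared by all 4 groups. On the log2 scale the SD was 0.51 in KO isoproterenol and 0.28 in KO saline. It was 0.14 in WT isoproterenol and 0.16 in WT saline, so the interval may be too narrow for KO. Under isoproterenol KO exceeded WT by 1.47 on the log2 scale (SE 0.21, limma adjusted p = 9.35e-05).

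The response in KO minus the response in WT, the difference of responses, was 1.53 for Slc6a8 (SE 0.29, limma adjusted p = 0.00316). It was 1.32 (limma adjusted p = 0.00154) once KO isoproterenol replicate 1 was dropped. Neutrophil marker sums of the same 4 KO isoproterenol libraries, in the order of their Slc6a8 values above, were 468, 144, 190 and 71.7 CPM, so the library with the most Slc6a8 also had the most neutrophil RNA and the one with the least had the least. With the neutrophil marker score as a covariate, a fit chosen after seeing the data, KO minus WT under isoproterenol was 0.42 (limma adjusted p = 0.265), the difference of responses was 0.35 (limma adjusted p = 0.571), and KO isoproterenol minus KO saline was -1.97 (limma adjusted p = 0.0262). In that fit the WT decrease was -2.32 (limma adjusted p = 2.89e-05). Neutrophil scores of KO isoproterenol libraries did not overlap those of the other groups, so score and group cannot be told apart there.

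Other transporters related to SLC6A8 were read beside it. Of 8 measured Slc6 and monocarboxylate carriers, 3 were called higher and 1 lower after isoproterenol in KO, against 23.8% and 24.8% of all genes. In WT 2 were called higher and 1 lower, against 7.6% and 8.98% of all genes. Slc6a6, the taurine transporter, rose by 1.56 on the log2 scale in KO and 1.31 in WT. Slc6a12, a betaine and GABA transporter, fell by 1.66 on the log2 scale in WT (limma adjusted p = 0.0311). Slc16a12, a monocarboxylate-family carrier described in human as a creatine transporter, rose by 2.40 on the log2 scale in KO (SE 0.46, limma adjusted p = 6.96e-04), and its difference of responses was 2.35 (limma adjusted p = 0.0192). The list's median log2 difference was 0.047 in KO and 0.21 in WT, against -0.0021 and -0.018 over all genes.

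The 2 enzymes of creatine synthesis did not move together. Gamt (ENSMUSG00000020150, chromosome 10), the methyltransferase, had 7.54, 2.32, 6.77 and 1.68 CPM in KO isoproterenol, 12.8, 8.11, 5.35 and 6.83 CPM in WT isoproterenol, 6.76, 17.2, 9.54 and 12.1 CPM in KO saline and 9.30, 10.4, 11.6 and 8.01 CPM in WT saline. KO isoproterenol fell in a lower and a higher pair of libraries, and the higher pair overlapped with both KO saline and WT isoproterenol. Gamt averaged 4.58 ± 3.00 CPM in KO isoproterenol and 11.4 ± 4.44 CPM in KO saline (SD, n = 4 each), a log2 difference of -1.52 (SE 0.44, limma adjusted p = 0.0101). This rested on 33 to 158 reads per library in KO isoproterenol. Fitted on the 8 KO libraries alone, the same difference had a limma adjusted p of 0.0557.

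In WT, Gamt averaged 8.28 ± 3.24 CPM after isoproterenol and 9.83 ± 1.53 CPM after saline, a log2 difference of -0.31 that was not called (limma adjusted p = 0.680). The difference of responses was -1.21 with a 95% interval of -2.53 to 0.11 (limma adjusted p = 0.164), so a genotype difference in the response was not called. KO minus WT under isoproterenol was -1.06 (limma adjusted p = 0.0602). That difference was called at -1.40 (limma adjusted p = 0.0140) without KO isoproterenol replicate 1 and at -1.35 (limma adjusted p = 0.0270) without KO isoproterenol replicate 3. With the neutrophil score as a covariate the KO response of Gamt was -3.78 (limma adjusted p = 0.174), and Gamt was called in no comparison of that fit. Over all genes that fit called 133 in KO, against 7460 without the score. Scores of KO isoproterenol libraries did not overlap those of the other groups, so score and group cannot be told apart there.

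Gatm (ENSMUSG00000027199, chromosome 2), the first enzyme of the pathway, had 10.2, 7.69, 11.2 and 4.09 CPM in KO isoproterenol, 6.44, 6.40, 3.48 and 6.20 CPM in WT isoproterenol, 6.06, 4.54, 6.71 and 5.46 CPM in KO saline and 7.36, 5.73, 5.63 and 4.44 CPM in WT saline. All 4 groups overlapped, and the spread was widest in KO isoproterenol. Its log2 difference was 0.46 after isoproterenol in KO (95% interval -0.18 to 1.09, limma adjusted p = 0.220) and -0.061 in WT (limma adjusted p = 0.918). Once KO isoproterenol replicate 4, the lowest of its group, was dropped, Gatm was called higher in KO after isoproterenol at 0.76 (limma adjusted p = 0.0180) and in KO over WT under isoproterenol at 0.81 (limma adjusted p = 0.0145).

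Genes that transport, make or break down arginine and glycine, the substrates of GATM, were read beside it. Of 13 measured, 5 were called higher and 3 lower after isoproterenol in KO, against 23.8% higher and 24.8% lower of all genes. In WT limma called none of the 13, against 7.6% higher and 8.98% lower of all genes, of which 4664 had an unadjusted p under 0.05, and 1 was higher and 2 lower in a fit of the 8 WT libraries alone with the replicate number as a block (the paired WT fit, which called 17.3% of all genes higher and 17.2% lower). Arg1 and Arg2, the arginases that consume arginine, rose by 4.94 (SE 0.83) and 6.92 (SE 0.74) on the log2 scale in KO, and their differences of responses were 6.68 and 5.21. Gldc, the glycine decarboxylase of the glycine cleavage system, rose by 3.14, and Slc7a1, a cationic amino acid transporter, by 1.20. Shmt1, which interconverts serine and glycine, fell by 2.23 on the log2 scale, and Gcat, a mitochondrial enzyme of threonine breakdown to glycine, fell by 1.53. The list's median was 0.39 in KO and -0.042 in WT. Macrophage markers, which include no gene of this list, were called higher in KO for 12 of 12 genes, summing to 1131 to 8285 CPM in KO isoproterenol and 379 to 681 CPM in KO saline, and their part in the arginase values was not tested.

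Genes of S-adenosylmethionine metabolism, both those that make this methyl donor and those that use it, were called in both genotypes. Of 12 measured, 3 were higher and 4 lower in KO, against 23.8% and 24.8% of all genes, and 2 were higher and 2 lower in WT, against 7.6% and 8.98%. Ahcyl2, a relative of S-adenosylhomocysteine hydrolase, fell by 2.07 on the log2 scale in KO and fell by 2.06 in WT, and Ahcyl1 fell by 2.03 in KO. Nnmt, which uses the methyl donor on nicotinamide, rose by 1.56 in KO and 2.93 in WT. Gnmt, which uses it on glycine, rose by 1.73 in WT, and its difference of responses was -2.64 (limma adjusted p = 0.00423). Mat2a, which makes S-adenosylmethionine, had log2 differences of -0.45 in KO and 0.069 in WT and was not called. The list's median was -0.34 in KO and 0.15 in WT.

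Ckb was lowest in the KO isoproterenol libraries and was called lower there against both KO saline and WT isoproterenol. Ckb (ENSMUSG00000001270, chromosome 12) had 56.3, 63.0, 85.6 and 52.4 CPM in KO isoproterenol, 117, 128, 141 and 312 CPM in WT isoproterenol, 249, 161, 165 and 142 CPM in KO saline and 133, 206, 95.04 and 130 CPM in WT saline. The 4 KO isoproterenol libraries were the 4 lowest of the 16, and the other 3 groups overlapped. Ckb averaged 64.3 ± 14.9 CPM in KO isoproterenol and 179 ± 47.8 CPM in KO saline (SD, n = 4 each), a log2 difference of -1.47 (SE 0.30, limma adjusted p = 0.00102). In WT it averaged 174 ± 91.9 CPM after isoproterenol and 141 ± 46.5 CPM after saline, a log2 difference of 0.24 with a 95% interval of -0.40 to 0.88 (limma adjusted p = 0.635). The WT value turned to -0.080 without WT isoproterenol replicate 4, its highest library.

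Under isoproterenol KO minus WT was -1.34 for Ckb (SE 0.30, limma adjusted p = 0.00222), and the difference of responses was -1.71 (SE 0.42, limma adjusted p = 0.0111). It was -1.66 (limma adjusted p = 0.0137) once KO isoproterenol replicate 1 was dropped. Brown adipocyte markers were called lower under isoproterenol in KO against WT for 7 of 12 genes and higher for none, against 23.1% and 21.6% of all genes. Ucp1, the targeted gene, was among the 7. The part of these markers in the Ckb difference was not tested. With the neutrophil score as a covariate the KO response was -2.84 (limma adjusted p = 0.143) and the difference of responses -2.52 (limma adjusted p = 0.0730), while KO minus WT under isoproterenol remained called at -2.06 (limma adjusted p = 0.0368). Over all genes that fit called 133 in KO and 159 for the difference of responses, against 7460 and 3787 without the score.

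**Figure D2:**
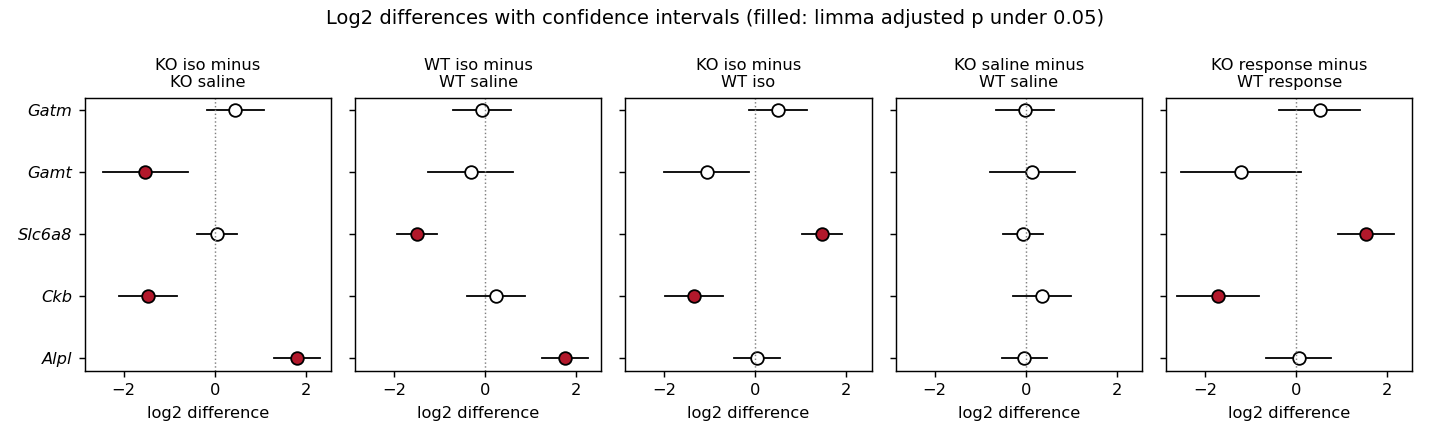
Log2 differences of 5 creatine cycle genes (horizontal axes) in 5 comparisons, from limma over 16 libraries. Points are estimates, lines 95% confidence intervals, and filled points are called at a limma adjusted p under 0.05. Alpl was called in both isoproterenol comparisons at 1.81 in KO and 1.75 in WT, Slc6a8 and Ckb were called in opposite directions in KO against WT under isoproterenol, and no gene was called between the saline groups.

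Adenine nucleotide and phosphate carriers and porins of the mitochondrial membranes were read with Ckb. Of 10 measured carriers and porins, 1 was called higher and 6 lower after isoproterenol in KO, against 23.8% and 24.8% of all genes. In WT 1 was called higher and none lower, against 7.6% and 8.98%, and 3 were higher and 1 lower in the paired WT fit. Slc25a4, an ADP/ATP carrier, fell by 1.69 on the log2 scale in KO (SE 0.25), Slc25a23, a calcium-regulated ATP-magnesium carrier, fell by 3.29, and the porin Vdac1 fell by 0.95. Slc25a24, of the same ATP-magnesium carrier family, rose by 2.31. Slc25a5, another ADP/ATP carrier, had a KO difference of -0.31 that was not called, and Slc25a3, the phosphate carrier, rose by 0.65 in WT (limma adjusted p = 0.0489). Medians were -0.61 in KO and -0.043 in WT.

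Adenylate kinases, the other enzymes that buffer ATP, and AMPK subunits moved as follows. Of 12 measured, limma called 6 lower and none higher in KO, against 24.8% lower and 23.8% higher of all genes, of which 8443 had an unadjusted p under 0.05. In WT 1 was lower and 1 higher, against 8.98% and 7.6%, and 1 was lower and 4 higher in the paired WT fit. Ak1, the cytosolic enzyme, fell by 2.22 on the log2 scale in KO (SE 0.27) and its difference of responses was -2.08 (limma adjusted p = 0.00284). Ak3, a mitochondrial matrix enzyme, fell by 1.89 in KO. Prkag2, a regulatory subunit of AMPK, fell by 2.54 on the log2 scale in KO and fell by 1.69 in WT, and Ak6 rose by 0.45 in WT. Medians were -0.84 in KO and 0.048 in WT. Calcium cycling genes, which belong to another UCP1-independent route to heat, had 2 higher and 2 lower of 12 in KO, against 23.8% and 24.8% of all genes. In WT none was higher and 1 lower, against 7.6% and 8.98%, and 6 were higher and 2 lower in the paired WT fit. Atp2a3, a calcium pump, rose by 1.44 and Itpr2, a calcium release channel, fell by 2.60 on the log2 scale in KO, and Itpr2 fell by 0.93 in WT. That list's medians were -0.0084 in KO and 0.25 in WT. Atp2a1, Ryr1 and Casq1 of the calcium list are also on the skeletal muscle list, and the part of muscle RNA in its values was not tested.

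Alpl was the one member called higher after isoproterenol, and it was called in both genotypes. Alpl (ENSMUSG00000028766, chromosome 4), the phosphatase, had 53.6, 110.0, 88.8 and 154 CPM in KO isoproterenol, 96.7, 76.3, 93.5 and 108 CPM in WT isoproterenol, 25.7, 22.5, 30.2 and 30.7 CPM in KO saline and 25.9, 32.6, 25.3 and 27.2 CPM in WT saline. Every isoproterenol library lay above every saline library, and within isoproterenol the KO libraries were spread on both sides of the WT ones. Alpl averaged 102 ± 41.9 CPM in KO isoproterenol and 27.3 ± 3.90 CPM in KO saline (SD, n = 4 each), a log2 difference of 1.81 (SE 0.24, limma adjusted p = 3.20e-05). It averaged 93.6 ± 13.0 CPM in WT isoproterenol and 27.7 ± 3.32 CPM in WT saline, a log2 difference of 1.75 (SE 0.24, limma adjusted p = 2.49e-04).

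The difference of responses for Alpl was 0.056 with a 95% interval of -0.66 to 0.77 (limma adjusted p = 0.919), which leaves room for responses that differ by up to 0.77 on the log2 scale. KO isoproterenol replicate 1 had the lowest Alpl of its group and also the lowest brown adipocyte marker sum, 177 CPM, and replicate 4 had the highest of both, with 8715 CPM of the markers. Replicates 2 and 3 were in the opposite order, with 110.0 and 88.8 CPM of Alpl against 1912 and 3752 CPM of the markers. Without replicate 1 the KO response was 2.08 (limma adjusted p = 6.99e-07). With the neutrophil score as a covariate Alpl remained called in KO at 3.33 (limma adjusted p = 0.0298) and in WT at 2.38 (limma adjusted p = 0.00147).

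Phosphate handling genes near ALPL in function had 4 of 6 measured called higher and none lower in KO, against 23.8% and 24.8% of all genes. In WT 1 was called higher and 1 lower, against 7.6% and 8.98%. Enpp1, which makes the pyrophosphate that ALPL hydrolyses, rose by 2.66 on the log2 scale in KO (SE 0.44) and its difference of responses was 2.56. Slc20a1, a sodium-phosphate cotransporter, rose by 1.05 in KO and fell by 0.62 on the log2 scale in WT, with a difference of responses of 1.67 (limma adjusted p = 0.00160). Pnp, purine nucleoside phosphorylase, rose by 0.92 in KO and 1.43 in WT. Phospho1, a phosphatase of phosphocholine and phosphoethanolamine that has been placed beside ALPL in bone mineralisation, had a KO difference of -1.32 that was not called (limma adjusted p = 0.0547). Medians were 0.62 in KO and -0.065 in WT.

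The muscle-type kinases Ckm and Ckmt2 were read against the skeletal muscle signal. The promoters of Ckm, Ckmt2 and Ckb are printed because the first pair tracked muscle RNA and the third did not. They run from 250 bases before to 50 bases after the RefSeq start site of build GRCm38.p6, 5′ to 3′ on the gene's strand, at chr7:19410844-19411143 on the plus strand for Ckm, chr13:91876836-91877135 on the minus strand for Ckmt2 and chr12:111672289-111672588 on the minus strand for Ckb. Capitals mark matches, on either strand, to CAGCTG, an E-box that myogenic factors bind, to the MEF2 motif, to AAGGTCA, to TGACG and TGACGTCA, forms bound by CREB-family factors, and to TATAAA.
Ckm: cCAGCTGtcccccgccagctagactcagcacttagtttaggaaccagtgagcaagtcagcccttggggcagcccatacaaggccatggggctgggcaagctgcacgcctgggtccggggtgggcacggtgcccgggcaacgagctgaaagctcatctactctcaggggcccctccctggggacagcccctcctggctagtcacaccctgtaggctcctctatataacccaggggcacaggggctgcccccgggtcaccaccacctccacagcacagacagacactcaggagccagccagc
Ckmt2: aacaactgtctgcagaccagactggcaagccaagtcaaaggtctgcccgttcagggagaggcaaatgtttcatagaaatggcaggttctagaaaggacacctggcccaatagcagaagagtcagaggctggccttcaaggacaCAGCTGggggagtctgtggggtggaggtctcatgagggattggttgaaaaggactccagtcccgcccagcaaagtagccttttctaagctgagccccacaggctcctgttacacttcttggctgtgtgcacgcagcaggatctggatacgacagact
Ckb: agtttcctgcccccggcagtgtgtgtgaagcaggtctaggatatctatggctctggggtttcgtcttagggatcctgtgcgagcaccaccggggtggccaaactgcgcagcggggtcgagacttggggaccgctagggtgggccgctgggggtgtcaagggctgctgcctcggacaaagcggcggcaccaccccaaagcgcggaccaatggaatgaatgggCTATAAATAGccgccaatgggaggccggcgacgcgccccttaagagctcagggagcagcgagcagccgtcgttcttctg
Ckm held 1 CAGCTG at -249 from the start site and Ckmt2 held 1 at -107, and 16.3% of 32851 RefSeq promoter windows of the same length hold that motif. Ckb held no CAGCTG. Its capitals mark a MEF2 motif match at -29, a motif found in 3.69% of windows, which overlaps a TATAAA match at -28, found in 13.6%. AAGGTCA is found in 4.72% of windows, TGACG in 20.8% and TGACGTCA in 1.79%, and none of these windows of the 3 kinases held one. Gatm and Gamt windows held none of the 6 motifs, and Slc6a8 had no window. Alpl has 2 windows, of which the first held a CAGCTG at -176. The second Alpl window held a TGACG match at -128 and a TATAAA match at -192. A match is a description of letters in a window.

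Ckm (ENSMUSG00000030399, chromosome 7) had 0.17, 52.8, 40.5 and 4.79 CPM in KO isoproterenol, 8.14, 0.12, 47.8 and 163 CPM in WT isoproterenol, 0.53, 58.9, 51.4 and 0.057 CPM in KO saline and 19.3, 0.50, 90.7 and 626 CPM in WT saline. These correspond to 3 to 854, 1 to 2331, 0 to 708 and 5 to 7536 reads per library in those groups. Each group held libraries near the floor of a few reads and libraries far above it, so all 4 groups overlapped. Ckmt2 (ENSMUSG00000021622, chromosome 13), the mitochondrial partner, had 0.024, 1.88, 1.75 and 0.075 CPM in KO isoproterenol, 0.42, 0.12, 3.14 and 12.1 CPM in WT isoproterenol, 0.11, 5.54, 4.54 and 0.057 CPM in KO saline and 3.13, 0.23, 7.77 and 77.8 CPM in WT saline. Libraries high in Ckm were high in Ckmt2 in every group.

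The skeletal muscle score of a library, the mean over the muscle list of log2 CPM centred on each gene's mean, was -3.52, 1.50, 1.54 and -1.41 in KO isoproterenol, -0.42, -3.71, 2.05 and 3.31 in WT isoproterenol, -3.14, 1.48, 1.72 and -3.84 in KO saline and 0.55, -3.60, 2.27 and 5.22 in WT saline. After group means were removed, the correlation with this score over 16 libraries was r = 0.980 and rho = 0.974 for Ckm and r = 0.982 and rho = 0.985 for Ckmt2 (permutation p = 3e-05 for each r, two-sided, 1.05e-04 adjusted over the 7 genes; for rho 3e-05 and 5e-05, adjusted 1.75e-04). Leaving out the 2 libraries farthest from the median score gave r = 0.974 and 0.988. For Gatm, Gamt, Slc6a8, Ckb and Alpl, r lay between -0.179 and 0.146, with adjusted permutation p of 0.898 for each. Per unit of score Ckm rose by 1.42 (SE 0.076, limma adjusted p = 1.69e-08) and Ckmt2 by 1.05 (SE 0.060, limma adjusted p = 2.54e-08) on the log2 scale. A called slope was found for 149 genes, 0.971% of those tested.

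**Figure D3:**
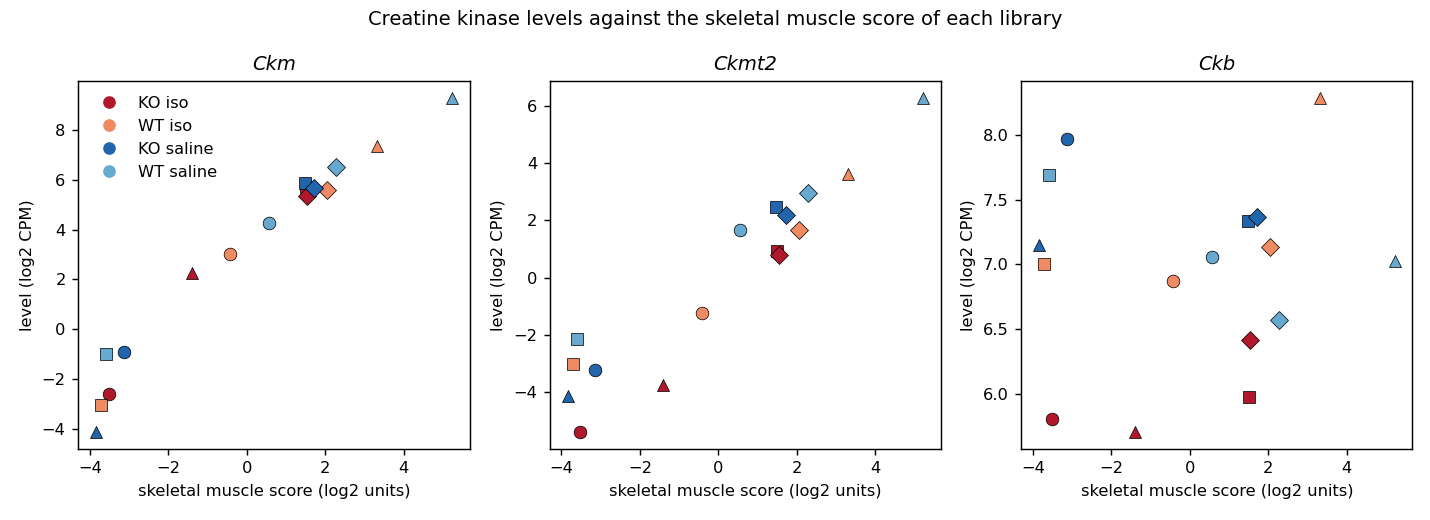
Levels of Ckm, Ckmt2 and Ckb in log2 CPM (vertical axes, one scale per panel) against the skeletal muscle score of each library in log2 units, coloured by group, with circles, squares, diamonds and triangles for replicates 1 to 4. Ckm and Ckmt2 rise with the score in every group (r = 0.980 and 0.982 within groups), and Ckb does not (r = 0.081).

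The main comparisons of Ckm and Ckmt2 therefore had wide errors. Log2 differences of Ckm were 1.05 (SE 2.81) after isoproterenol in KO and -1.53 (SE 2.81) in WT, and those of Ckmt2 were -1.17 (SE 2.07) and -1.94 (SE 2.07). None was called in this fit, and 95% intervals of -4.95 to 7.05 for Ckm and -5.58 to 3.23 for Ckmt2 in KO leave either direction possible. With the muscle score as a covariate the SE fell to 0.58 for Ckm and 0.45 for Ckmt2 in KO. Ckm then differed by 0.38 in KO (limma adjusted p = 0.612) and -0.39 in WT (limma adjusted p = 0.697), and was still not called.

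Same-numbered WT libraries had correlated deviations from their group means, of 0.210 to 0.535, but differently numbered ones reached 0.371. The paired WT fit, chosen after seeing the data and from these same values, called both muscle-type kinases lower after isoproterenol. Those calls rest on a pairing that the labels do not state. Ckm stood at -1.53 (limma adjusted p = 4.80e-04) and Ckmt2 at -1.94 (limma adjusted p = 0.00323), each lower in WT isoproterenol in 4 of 4 pairs, while Slc6a8 and Alpl kept their calls. The muscle score was also lower in WT isoproterenol in 4 of 4 pairs, by 0.12 to 1.91, and 6 of 27 muscle genes were called lower and none higher, and the part of muscle RNA in both values was not tested in that fit. Over all genes it called 17.3% higher and 17.2% lower.

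With the muscle score as a covariate, Ckmt2 was called at -1.67 after isoproterenol in KO (limma adjusted p = 0.00729). In the same covariate fit it was called at -1.28 in KO against WT under isoproterenol (limma adjusted p = 0.0334). Its difference of responses there was -0.58 (limma adjusted p = 0.536). KO isoproterenol replicates 1 and 4 had 0 and 1 reads of Ckmt2, and KO saline replicates 1 and 4 had 1 and 0. WT isoproterenol replicate 2 had 1 read and WT saline replicate 2 had 2. The log2 values of these libraries depend on the prior count and on depth. At 0 reads the log2 value was -5.39 in KO isoproterenol replicate 1 and -4.12 in KO saline replicate 4, the library with fewer reads. The part of depth in the covariate calls was not tested. Among the 9 libraries with more than 96 reads of both genes together, a limit chosen after seeing the data, the share of Ckmt2 in those reads was 3.39% (exact 95% binomial interval 2.30 to 4.81) and 4.08% (2.83 to 5.69) in KO isoproterenol, 6.10% (4.48 to 8.07) and 6.91% (5.95 to 7.97) in WT isoproterenol, 8.54% (6.66 to 10.7) and 8.05% (6.23 to 10.2) in KO saline, and 13.8% (9.83 to 18.7), 7.85% (6.30 to 9.64) and 11.1% (10.4 to 11.7) in WT saline. Both KO isoproterenol values were the lowest of the 9. These intervals cover counting error alone, and no test was made. Exons of Ckm share 451 bases with the antisense gene A930016O22Rik and those of Ckmt2 share 84 bases with 1700119I11Rik in the GENCODE M21 annotation, and the strand setting of the counting is not given in the sources used here.

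Levels of different genes were compared per kilobase of exon among the 5 members other than the muscle kinases. Ckm and Ckmt2 were left out of this order because they followed muscle RNA, and Ckm averaged 63.2 ± 102 CPM per kb in WT saline. In KO isoproterenol Alpl averaged 25.2 ± 10.4, Ckb 22.2 ± 5.13 and Slc6a8 18.1 ± 6.55 CPM per kb (SD, n = 4 each), which did not differ beyond their spread. Gamt at 3.17 ± 2.08 and Gatm at 2.76 ± 1.05 CPM per kb lay below them and did not differ from each other beyond their spread. In WT isoproterenol Ckb stood at 60.3 ± 31.7 and Alpl at 23.2 ± 3.23, above Slc6a8 at 6.28 ± 0.618, Gamt at 5.73 ± 2.25 and Gatm at 1.88 ± 0.478 CPM per kb. In both saline groups Ckb was highest of the 5, at 61.9 ± 16.5 in KO and 48.7 ± 16.1 CPM per kb in WT. Slc6a8 followed at 17.0 ± 3.34 in KO and 17.7 ± 1.91 in WT, then Gamt at 7.90 ± 3.07 and 6.81 ± 1.06 and Alpl at 6.77 ± 0.968 and 6.87 ± 0.823, and Gatm at 1.90 ± 0.308 and 1.93 ± 0.400 CPM per kb. Gamt and Alpl did not differ beyond their spread in either saline group.

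Ckb made up most creatine kinase RNA where muscle RNA was low. Its share of the summed CPM per kb of Ckb, Ckm and Ckmt2 was 99.6, 52.9, 66.2 and 91.4% in KO isoproterenol, 92.9, 99.7, 72.4 and 62.6% in WT isoproterenol, 99.7, 69.9, 73.3 and 99.9% in KO saline and 84.0, 99.5, 47.5 and 14.4% in WT saline. The sum itself ran from 19.5 to 44.7 CPM per kb in KO isoproterenol libraries, 43.5 to 172 in WT isoproterenol libraries, 49.1 to 86.4 in KO saline libraries and 54.7 to 312 in WT saline libraries. None of 12 comparisons of shares between groups passed an exact two-sided permutation test (lowest p = 0.257, adjusted 0.686), where 4 against 4 libraries can reach 0.0286.

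**Figure D4:**
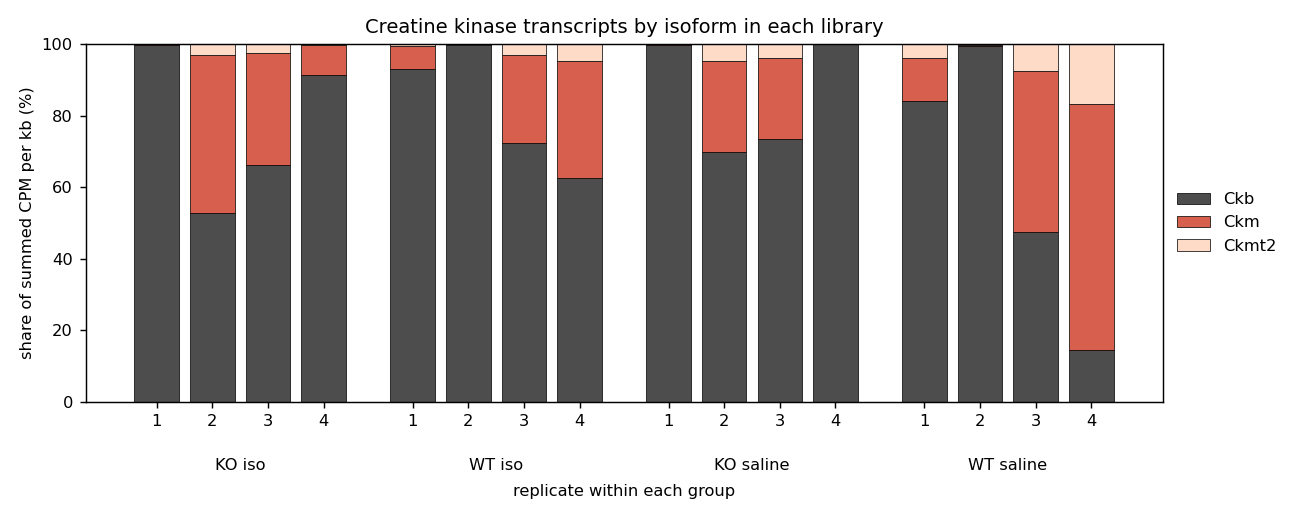
Share of summed CPM per kb of exon (vertical axis, %) taken by Ckb, Ckm and Ckmt2 in each library, by group and replicate number. Ckb shares run from 14.4% in 1 WT saline library to 99.9% in 1 KO saline library, and every group holds a library at 99.5% or more.

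Counts of called members were read against all genes. After isoproterenol in KO, 1 of 7 members was higher and 2 lower, against 23.8% higher and 24.8% lower of all genes. In WT 1 was higher and 1 lower, against 7.6% and 8.98%, and in the paired WT fit 1 was higher and 3 lower, against 17.3% and 17.2%. Under isoproterenol KO against WT had 1 higher and 1 lower, against 21.6% and 23.1%. For the difference of responses 1 was above and 1 below 0, against 10.9% and 13.8%. These shares of 7 genes are near the background or too few to set apart from it. Median log2 differences of the 7 members were 0.045 in KO, -0.31 in WT and -0.55 in KO against WT under isoproterenol, against -0.0021, -0.018 and 0.015 over all genes.

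Between the saline groups, KO against WT, no member was called by limma and 0 of 7 had an unadjusted p under 0.05, against 0.0717% of all genes called higher and 0.0261% lower and 1061 genes at that unadjusted p. The 5 members other than the muscle kinases had log2 differences of -0.067 for Slc6a8 to 0.37 for Ckb. The widest of their 95% intervals was that of Gamt, -0.79 to 1.08, and narrower ones were -0.51 to 0.37 for Slc6a8 and -0.53 to 0.48 for Alpl. Differences within a gene's own interval cannot be told from none at this number of libraries. The pathway lists beside them likewise had no called gene under saline.

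Genes with the pattern most like each member were taken as the 3 highest Pearson r of log2 CPM over 16 libraries, as a description of libraries that share their groups. For Ckm they were Atp2a1, Acta1 and Tnnt3 (r = 0.993, 0.989 and 0.988), all on the muscle list, and for Ckmt2 Myh2, Ano5 and Pygm (0.970, 0.970 and 0.966). For Slc6a8 they were Agtrap, Spint1 and Tspyl2 (0.957, 0.919 and 0.914) and for Alpl Arpp19, Ogdhl and Metap1 (0.948, 0.947 and 0.945). Ckb was most like Mus81, Gcat and Fbxl21 (0.867, 0.865 and 0.863), of which Gcat is on the arginine and glycine list. Gamt was most like Myl6, Washc3 and Car3 (0.949, 0.911 and 0.890), and Gatm was most like Trim27, Map1s and Rpl31 (0.859, 0.854 and 0.852).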

How the data were processed

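Per the labels' protocols, RNA was made into strand-marking mRNA libraries and read as 75 bp single reads. The authors deposited log2 CPM values for 15350 genes in each of 16 libraries. The submitters' processing notes name STAR, limma and the mm39 build, with versions, annotation, counter, strand setting and gene filter not given in the sources used here. Whole reads were recovered from 100% of the deposited log2 values (within 1e-06), each being reads plus 0.5 times a step per library, and the library size behind the CPM was 0.854 to 1.25 times the reads, so CPM contain the prior count. Genes at 0 to 3 reads are the depth limit.

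Genotype and treatment labels set the groups, and titles gave replicate numbers. In 3 KO saline files the column header carries another number than the title, and the treatment text of saline samples describes isoproterenol, so the treatment characteristic was used. Symbols, chromosomes and exon lengths came from GENCODE M21, matched for 15320 identifiers and not for 30. Promoters came from RefSeq, GRCm38.p6, found for 7 of the 8 members and not for Slc6a8.

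The main fit was limma 3.58.1 (R 4.3.3) on the log2 values, with 4 group means over 16 libraries, 12 residual degrees of freedom, trended and robust empirical Bayes, and Benjamini-Hochberg adjustment over 15350 genes. It was tested on simulated data. Correlations with the muscle score used 100000 permutations within groups (Python 3.11.15, scipy 1.17.1), and shares used exact permutation tests. The members and gene lists were chosen with earlier results of these data known. All members are named. From each pathway list the called genes with the largest differences each way, and fixed partners of the members, are named, except for 1 gene that is not reported here. Alternatives were library totals, voom weights, an untrended prior, a filter at a mean of 1 CPM, a prior count of 2, 8 libraries alone, the replicate block, the muscle score, and leaving out each library. Same-numbered WT isoproterenol and WT saline libraries had correlated deviations from their group means of 0.210 to 0.535 in 4 of 4 pairs. Differently numbered pairs of those groups ran from -0.532 to 0.371, so the ranges overlapped. A pairing by title number was thus taken from the values, is not stated in the labels and is uncertain. Neutrophil and endothelial scores as covariates, the header-number block and the block in the 8 WT libraries were chosen after seeing the data.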

Additional observations from a re-analysis of the deposited data

Results flagged for a closer look

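Slc6a8 was picked out because its isoproterenol responses differed between KO and WT, by 1.53 on the log2 scale (limma adjusted p = 0.00316). Ckb was picked out for the same reason, with a difference of -1.71 (limma adjusted p = 0.0111). For Slc6a8 the WT isoproterenol libraries were the low ones, at 29.6 to 37.2 CPM, and KO isoproterenol averaged 94.5 CPM against 88.7 CPM in KO saline. For Ckb the KO isoproterenol libraries were the low ones, at 52.4 to 85.6 CPM. Neutrophil marker sums were 71.7 to 468 CPM in KO isoproterenol and 22.2 to 39.8 CPM in WT isoproterenol. With the neutrophil score as a covariate the Slc6a8 difference was smaller, at 0.35 (limma adjusted p = 0.571), and the Ckb difference was larger, at -2.52, but was not called (limma adjusted p = 0.0730). Over all genes that fit called 159 for the difference of responses, against 3787 without the score.

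Gatm in WT isoproterenol replicate 3 stood apart from its group, at 1.80 log2 CPM, with a gap of 0.936 of the range of the group, above the 95% limit of the Dixon test for 4 samples. Among 28 sets of a gene and a group looked at, chance would give about 1 in 20.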

How the results depend on the processing

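No called member lost its call or changed direction under library totals, voom weights, an untrended prior, the low-value filter, a prior count of 2, the muscle score or leaving out any 1 library, and with only the 8 KO libraries Gamt in KO was no longer called (adjusted p = 0.0557). Scaling by library totals shifted the all-gene median by 0.18 in KO, -0.11 in WT, 0.26 in KO against WT under isoproterenol and 0.29 for the difference of responses. The replicate block over all 16 libraries changed no count of called members (3 in KO, 2 in WT, 0 under saline, 2 in KO against WT under isoproterenol, 2 for the difference of responses). In the 8 WT libraries, where a pairing by number was taken from the values and is uncertain, the replicate block called 4 members. These were Ckm and Ckmt2 besides Slc6a8 and Alpl. It called 5297 genes in all, against 4923 in the same libraries without the block, and it changed no other member's call. In the other comparisons the numbers gave less sign of pairing. Correlations of deviations were 0.033 to 0.239 for KO isoproterenol and KO saline, -0.246 to 0.218 for KO and WT isoproterenol and -0.431 to 0.025 for KO and WT saline. With the block numbered by column headers, Gamt was called in KO against WT under isoproterenol (-1.06, adjusted p = 0.0468).

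The neutrophil covariate moved counts of called members to 1 in KO against WT under isoproterenol and to 0 for the difference of responses, where limma with the same covariate called 159 genes in all and its counts over all genes were 133 in KO, 1309 in WT and 770 under isoproterenol, against 3787, 7460, 2546 and 6853 without it. The calls it ended were Gamt (-3.78) and Ckb (-2.84) in KO, Slc6a8 under isoproterenol (0.42), and Slc6a8 (0.35) and Ckb (-2.52) for the difference of responses. It turned the direction of Gatm (-0.72), Slc6a8 (-1.97) and Ckmt2 (1.19) in KO, Ckb (-0.33) and Ckm (0.066) in WT, Gatm (0.065) and Slc6a8 (0.073) under saline, Gatm (-0.11) and Ckm (1.46) under isoproterenol, and Gatm (-0.18) for the difference of responses. The endothelial covariate turned Ckmt2 in KO (1.13) and Gatm under saline (0.13), and the muscle covariate turned Alpl under saline (0.0084), Ckm under isoproterenol (0.56) and Ckmt2 for the difference of responses (-0.58). Causes were not tested.

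Leaving out each library in turn turned the direction of values that were not called. Their ranges were, in KO, -0.17 to 0.24 for Slc6a8, -0.87 to 2.81 for Ckm and -2.32 to 0.0059 for Ckmt2. In WT they were -0.18 to 0.15 for Gatm, -0.080 to 0.44 for Ckb and -3.46 to 0.56 for Ckm. Under saline they were -0.14 to 0.11 for Gatm, -0.080 to 0.37 for Gamt, -0.18 to 0.036 for Slc6a8 and -0.088 to 0.062 for Alpl. Under isoproterenol they were -2.63 to 1.21 for Ckm and -0.20 to 0.30 for Alpl. For the difference of responses they were -0.60 to 2.21 for Ckmt2 and -0.18 to 0.33 for Alpl. Counts over all genes ran from 1623 to 3640 in WT (2546 in the main fit) and from 4 to 37 under saline (15), and were 4923 and 50 with only the 8 libraries compared.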
